A study of Mus musculus with 10 samples.

Results

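Scavenger receptors are surface and lysosomal membrane proteins with which macrophages bind modified lipoproteins, extracellular matrix fragments, dying cells and other waste, and Dab2 is a clathrin adaptor that links several endocytic receptors to the coated pit. The 9 genes described here were picked by symbol from the deposited count table, which lists 53546 genes, with earlier results of these data known. They are the class A receptors Msr1, Marco and Colec12, the class B receptors Cd36, Scarb1 and Scarb2, the class H receptor Stab1, the lipoprotein receptor Lrp1, and Dab2. All 9 were in the table, and 8 passed the filter on low counts; Marco did not. Their levels were compared in CNS-associated macrophages, the macrophages of the meninges, perivascular spaces and other borders of the brain, sorted from individual C57BL/6N mice aged 6 to 8 weeks that had received no treatment.

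The mice differed in the number of Mrc1-CreERT2 alleles, by whose name the tamoxifen-inducible recombinase CreERT2 is expressed from the Mrc1 locus, which encodes the mannose receptor (CD206). The genotypes were Mrc1-CreERT2/Mrc1-CreERT2 (homozygous, 4 mice), Mrc1-CreERT2/wt (heterozygous, 3 mice) and wild type (3 mice), and the comparison asks whether carrying the allele alters the transcripts of these cells without induction of Cre. The mannose receptor is itself an endocytic receptor, so the other uptake receptors of the same cell are of interest in mice that lack most of its transcript. Levels are given as CPM, the counts of a gene per 1000000 counts of its library after scaling. The Mrc1 transcript itself measured 3748, 3065 and 3631 CPM in the wild-type libraries. It measured 1985, 2188 and 2286 CPM in the heterozygous and 441, 455, 542 and 519 CPM in the homozygous ones, with no overlap between genotypes. Libraries held 22986972 to 36575446 counts. Of the 10 markers of CNS-associated macrophages, all had counts in every library. The 10 microglia markers did too, with summed levels of 8947 to 11378 CPM in homozygous, 11935 to 14726 CPM in heterozygous and 10302 to 18318 CPM in wild-type libraries, so the sorted material also held transcripts that mark microglia. Of those 10 markers 1 was fitted above 0 for homozygous against wild type, beside 51.1% of all genes, with a median log2 fold change of -1.16. None passed the edgeR test, and 6 of 10 were at an unadjusted p under 0.05, beside 7.52% of all genes. The part of this difference in the members' values was not tested. In bulk RNA, fewer cells of a type and less RNA per cell cannot be told apart.

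As background, stabilin-1, the product of Stab1, takes up acetylated low-density lipoprotein and the matrix protein SPARC and shuttles between the surface and endosomes. Msr1, Marco and Colec12 encode trimeric collagenous receptors for polyanionic ligands. CD36 and SR-BI, the product of Scarb1, handle fatty acids, oxidised lipoproteins and high-density lipoprotein, while LIMP-2, the product of Scarb2, is a lysosomal membrane protein that carries glucocerebrosidase to the lysosome. LRP1 is a large receptor for apolipoprotein E and protease complexes, and DAB2 binds the NPXY-type signals in the tails of receptors of its kind.

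Stab1 and Dab2 were by far the most abundant of these genes, so their promoters are shown. The windows come from RefSeq on GRCm38.p6 and run from 250 bases before to 50 bases after each annotated start, written 5′ to 3′ on the strand of the gene. The set of windows used here held 6 of the 9 genes. Capitals mark the core recognised by the myeloid factor PU.1 (GAGGAA) and the half-site of the MAF recognition element (TGCTGA), on either strand. The Stab1 window is chr14:31168592-31168891 on the minus strand. The Dab2 windows, for separate annotated starts, are chr15:6299539-6299838 and chr15:6386498-6386797 on the plus strand.
Stab1: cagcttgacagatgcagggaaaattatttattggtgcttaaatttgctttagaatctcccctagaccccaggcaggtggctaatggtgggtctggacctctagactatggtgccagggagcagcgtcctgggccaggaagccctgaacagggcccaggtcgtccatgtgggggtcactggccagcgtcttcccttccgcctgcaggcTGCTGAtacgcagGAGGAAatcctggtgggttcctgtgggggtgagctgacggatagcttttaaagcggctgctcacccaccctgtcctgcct
Dab2, upstream start: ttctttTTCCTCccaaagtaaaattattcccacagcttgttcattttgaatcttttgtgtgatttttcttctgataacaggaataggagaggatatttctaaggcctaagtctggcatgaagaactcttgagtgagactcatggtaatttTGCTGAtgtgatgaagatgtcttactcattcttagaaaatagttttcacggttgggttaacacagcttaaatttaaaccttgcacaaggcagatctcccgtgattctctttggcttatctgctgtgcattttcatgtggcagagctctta
Dab2, downstream start: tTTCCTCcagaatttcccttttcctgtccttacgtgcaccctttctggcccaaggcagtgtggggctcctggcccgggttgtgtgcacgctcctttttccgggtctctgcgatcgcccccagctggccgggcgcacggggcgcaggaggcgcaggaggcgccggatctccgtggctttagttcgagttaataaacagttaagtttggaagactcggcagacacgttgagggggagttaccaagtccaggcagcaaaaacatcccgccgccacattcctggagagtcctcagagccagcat

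The Stab1 window held the PU.1 core 30 bases and the MAF half-site 43 bases before the start. The upstream Dab2 window held both as well, 244 and 100 bases before the start, and the downstream window held only the PU.1 core, 249 bases before it. In both Dab2 windows the PU.1 core lay on the other strand, where it reads TTCCTC on the printed one. Of all 32851 windows of this length, 28.3% held the PU.1 core and 19.5% the MAF half-site, so matches of this kind were common. The AP-1 site (TGANTCA, in 7.81% of all windows) and the E-box (CACGTG, in 7.15%) had no match in these windows. None of the searched motifs overlapped another in them. A match describes the letters of a window and not binding.

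Per kilobase of exon, with the exonic length of each gene taken from GENCODE vM21, the levels in wild-type macrophages covered a wide range. Dab2 was at 382.1 ± 50.7 CPM per kb (SD, n = 3) and Stab1 at 228 ± 8.43 CPM per kb (SD, n = 3). Averaged over all 10 libraries, Dab2 ranked 83 and Stab1 143 among the 13704 tested genes with a length. Cd36 followed at 112 ± 19.4 CPM per kb (SD, n = 3) and Msr1 at 44.1 ± 8.28 CPM per kb (SD, n = 3). Scarb2, at 33.4 ± 3.36 CPM per kb, and Colec12, at 31.0 ± 3.28 CPM per kb (SD, n = 3 each), overlapped and could not be ordered. Scarb1 stood at 15.7 ± 1.99 CPM per kb and Lrp1 at 6.40 ± 2.88 CPM per kb (SD, n = 3 each). Apart from Scarb2 and Colec12, no gene's 3 wild-type values overlapped those of its neighbour in this order. In homozygous libraries Colec12 reached 50.2 ± 3.85 CPM per kb (SD, n = 4), above all values of Scarb2 in that genotype, which ran from 32.1 to 38.7 CPM per kb.

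**Figure D1:**
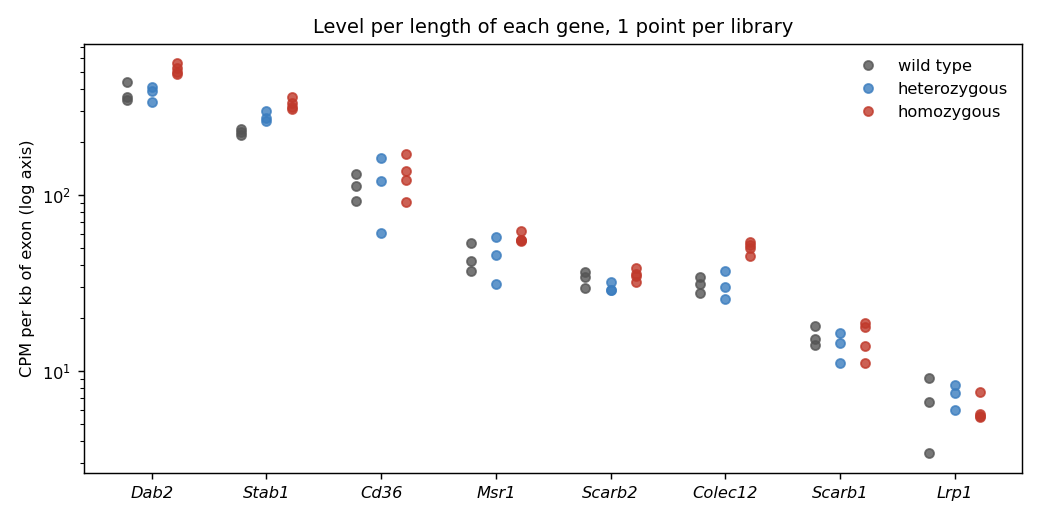
Level of the 8 tested genes per kilobase of exon (CPM per kb, log axis) in each of the 10 libraries, coloured by genotype, with genes ordered by their wild-type mean. Dab2 and Stab1 lie above the other tested genes in every library, and Lrp1 lies lowest among these 8; Marco is not drawn.

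Marco, a receptor best known from macrophages of the spleen and lung, was not detected in most libraries. It had 118 counts in homozygous replicate 2 and 124 counts in heterozygous replicate 1, which are 3.22 and 3.89 CPM. The other 8 libraries had 0 counts, which allows a level of up to 0.0878 to 0.130 CPM (3 counts, for counting error only). With 1 positive library in each of 2 genotypes no comparison was made.

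Between homozygous and wild-type macrophages none of the 8 tested members passed edgeR's quasi-likelihood test over all 14023 genes, where 9 genes did (0.0642%). DESeq2 called 3 of the 8 members and 1.94% of all genes, and limma-voom called 1 member and 0.0713% of all genes. With a stricter count filter edgeR called 1 member and 0.0958% of all genes. The closest were Stab1, Colec12 and Dab2, each higher in 4 of 4 homozygous libraries than in any wild-type library. Of the 8 members 4 separated in this way and 0 in the opposite direction, against 4.4% and 3.57% of all tested genes. At an unadjusted p under 0.05 there were 3 of 8, all higher, beside 7.52% of all genes in either direction and 4.56% higher. All 8 averaged 100 CPM or more in each genotype, while the shares also cover genes at lower levels. The median SE was 0.61 over all genes and 0.18 over those at 100 CPM or more. The shares of all genes, here and in the other comparisons, were thus not matched to the level of the members. Fitted values above 0 were found for 6 of 8 members and 51.1% of all genes. The median log2 fold change was 0.29 over the members and 0.02 over all genes tested. The members were chosen with earlier results of these data known. Shares of the members and lists set beside those of all genes, here and below, thus describe and do not test them.

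Stab1 had 2265, 2346 and 2438 CPM in the wild-type libraries. The heterozygous libraries had 2717, 2833 and 3114 CPM, and the homozygous libraries 3739, 3435, 3177 and 3275 CPM. No 2 genotypes overlapped, and the order was wild type, heterozygous, homozygous. Such a rising order without overlap was seen in 13 of the 14023 genes (0.0927%), and in 5 of the 1797 genes at 100 CPM or more (0.278%). Pf4, a marker of CNS-associated macrophages, was among them, with means of 1877, 2226 and 2657 CPM in that order. Other genes, Mrc1 among them, fell in this order without overlap. Homozygous libraries were 1.45-fold above wild type (95% interval 1.28 to 1.64), a log2 fold change of 0.54 (SE 0.08) with an adjusted p of 0.0567 by edgeR, the smallest of the members. The heterozygous value was 1.23-fold that of wild type (95% interval 1.08 to 1.40; edgeR adjusted p = 0.776), and the homozygous value 1.18-fold the heterozygous one (95% interval 1.05 to 1.33; edgeR adjusted p = 1). Stab1 passed for homozygous against wild type with a stricter count filter (edgeR adjusted p = 0.0482), with limma-voom (adjusted p = 0.0184) and with DESeq2 (adjusted p = 4.47e-07), so its call depends on the tool and the filter. A fit on the number of Mrc1-CreERT2 alleles (0, 1 or 2), added after this order had been seen, gave Stab1 0.27 on the log2 scale per allele (SE 0.04; edgeR adjusted p = 0.0419), and 6 genes passed in all (0.0428%). That call was lost with DESeq2's size factors (adjusted p = 0.0696) and without any 1 library other than heterozygous replicate 4 (edgeR adjusted p = 0.0480 without that one, and 0.0636 to 0.173 without another). Stab1 shares 112 of its 10288 exonic bases (1.09%) with Nt5dc2 on the other strand, and the libraries do not mark strand. Nt5dc2 had at most 3441 counts in any library, where Stab1 had 66528 to 126079. The part of shared reads was not tested.

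Colec12, which encodes a collagen-like lectin, had the highest fold of the group. Its homozygous libraries held 469, 439, 454 and 391.7 CPM. The wild-type libraries held 242, 299 and 271 CPM and the heterozygous ones 225, 262 and 324 CPM. The homozygous values lay above both other genotypes, which overlapped each other. The fold was 1.62 against wild type (95% interval 1.31 to 2.01; log2 0.70, SE 0.14; edgeR adjusted p = 0.218) and 1.62 against heterozygous (95% interval 1.31 to 2.01; edgeR adjusted p = 0.454). Between heterozygous and wild type it was 0.999 (95% interval 0.796 to 1.25). DESeq2 called both homozygous comparisons (adjusted p = 0.00128 in each), while limma-voom did not call the one against wild type (adjusted p = 0.0846).

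Dab2 showed the same arrangement at a far higher level. The homozygous libraries held 3861, 4119, 3585 and 3701 CPM. Wild-type libraries held 2537, 3230 and 2647 CPM, and heterozygous ones 2857, 2478 and 3025 CPM. All homozygous values were above all others, and the other genotypes overlapped. The fold was 1.36 against wild type (95% interval 1.16 to 1.60; log2 0.44, SE 0.10; edgeR adjusted p = 0.321) and 1.37 against heterozygous (95% interval 1.17 to 1.61; edgeR adjusted p = 0.627). For heterozygous against wild type it was 0.993 (95% interval 0.839 to 1.18). DESeq2 called Dab2 in both homozygous comparisons (adjusted p = 0.0113 and 0.00877).

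**Figure D2:**
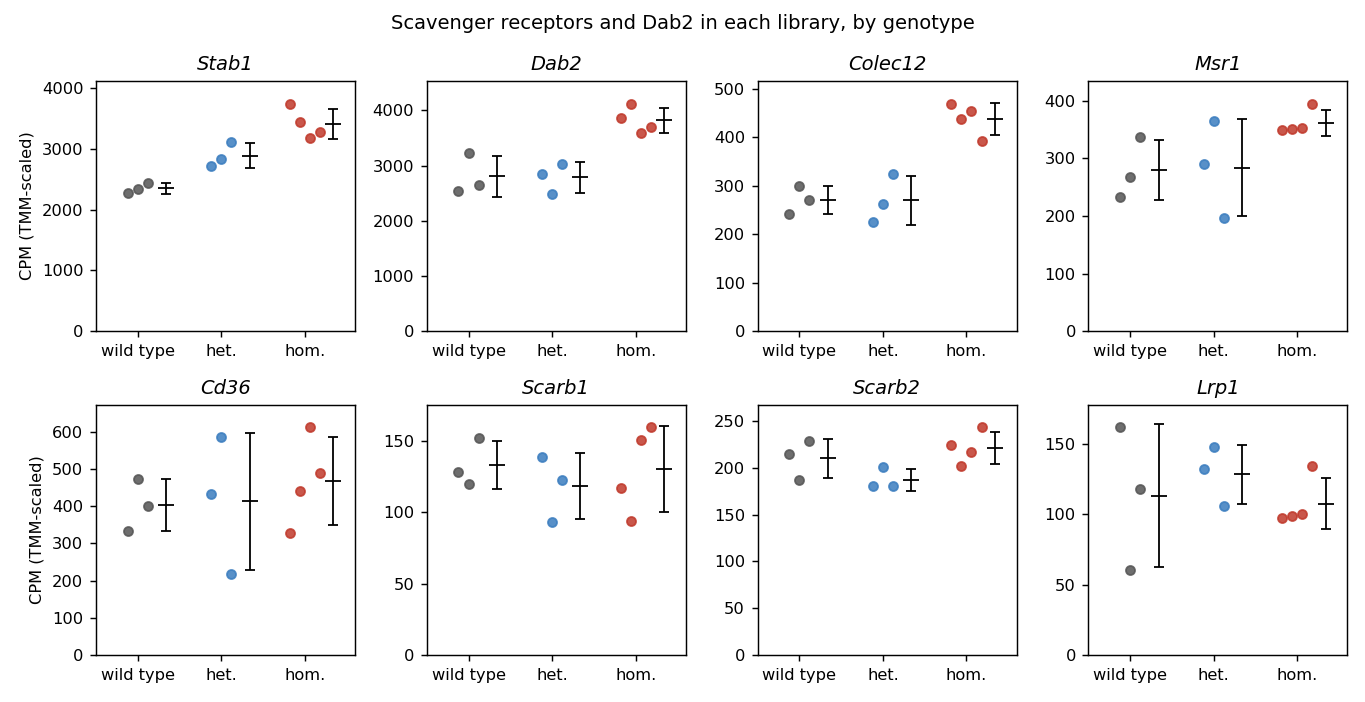
CPM of the 8 tested members in each library (points), with the mean and SD of each genotype (bar, n = 3, 3 and 4) beside them and axes from 0. Stab1 separates all 3 genotypes, while for Colec12 and Dab2 only the homozygous libraries stand above the rest.

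Beside these 3 genes stand the other markers of the sorted cells, of which only Lyve1 passed the edgeR test for homozygous against wild type. The summed level of the other 9 markers (Lyve1, Pf4, Cd163, F13a1, Ms4a7, Cbr2, Folr2, Clec4n and Siglec1) was 12075 to 13124 CPM in homozygous, 9315 to 11350 CPM in heterozygous and 8973 to 10578 CPM in wild-type libraries. Every homozygous library was above the others in that sum too, while F13a1, Ms4a7, Folr2, Clec4n and Siglec1 by themselves overlapped between homozygous and wild type. Relative to it, Stab1 amounted to 27.1 ± 2.81% (SD, n = 4) in homozygous, 28.0 ± 2.19% (SD, n = 3) in heterozygous and 24.7 ± 2.50% (SD, n = 3) in wild-type libraries, and the genotypes overlapped. Dab2 amounted to 30.3 ± 3.01% (SD, n = 4), 26.9 ± 0.495% (SD, n = 3) and 29.3 ± 1.37% (SD, n = 3), with overlap between homozygous and wild type. Colec12 amounted to 3.48 ± 0.334% (SD, n = 4), 2.61 ± 0.388% (SD, n = 3) and 2.83 ± 0.186% (SD, n = 3), and its lowest homozygous value of 3.03% was close to the highest wild-type value of 3.02%. The sum itself differed by genotype, as all 9 of its genes were fitted above 0 for homozygous against wild type. Between wild-type and homozygous libraries the mean of F13a1 went from 2649 to 3473 CPM and that of Pf4 from 1877 to 2657 CPM. Cd163 went from 1130 to 1591 CPM and Lyve1 from 631 to 1141 CPM.

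**Figure D3:**
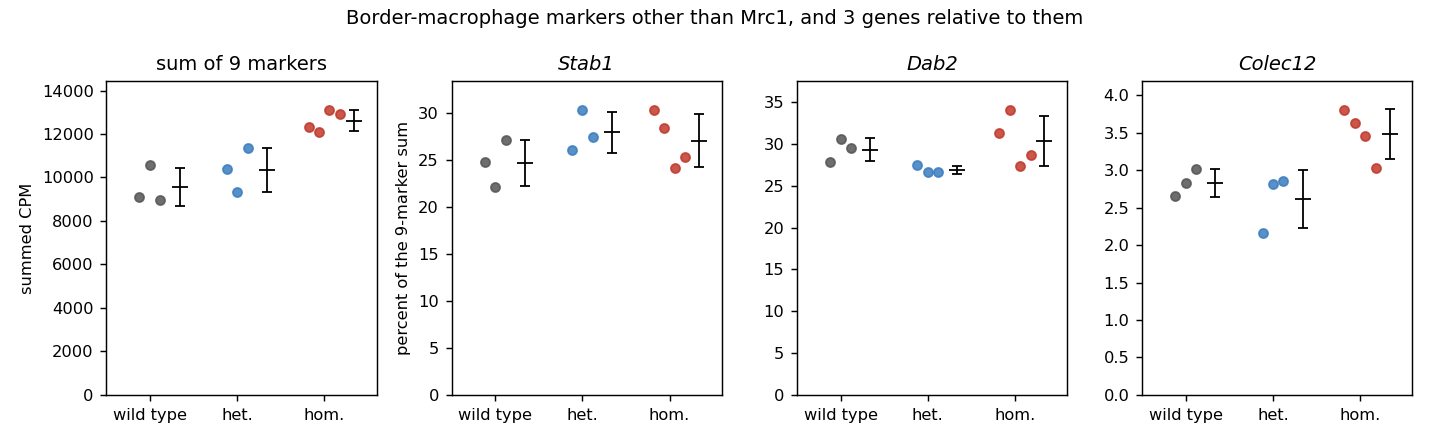
The left panel shows the summed CPM of 9 border-macrophage markers without Mrc1 in each library, and the other panels show Stab1, Dab2 and Colec12 as a percentage of that sum, with mean and SD per genotype (n = 3, 3 and 4). The sum is higher in all 4 homozygous libraries, and relative to it Stab1 and Dab2 overlap between homozygous and wild type.

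Endothelial cells and fibroblasts can also express scavenger receptors. Of 10 endothelial markers, Cldn5, Ly6c1, Emcn and Tie1 were at 0 in all libraries, and the list summed to 0.0363 to 7.12 CPM in homozygous, 0.123 to 1.92 CPM in heterozygous and 7.65 to 15.6 CPM in wild-type libraries. The 9 fibroblast markers summed to 59.5 to 95.8 CPM in homozygous, 49.9 to 87.5 CPM in heterozygous and 56.7 to 80.2 CPM in wild-type libraries, most of it from Ptgds. The other 8 fibroblast markers reached at most 0.345 CPM (Lum) to 12.3 CPM (Col3a1) in any library, and each was at 0 in at least 3 libraries. The 6 B cell markers summed to 251 to 410 CPM in homozygous, 329 to 446 CPM in heterozygous and 429 to 711 CPM in wild-type libraries, chiefly from Ighm. The 9 markers of monocytes and dendritic cells summed to 85.3 to 235 CPM in homozygous, 177 to 257 CPM in heterozygous and 190 to 306 CPM in wild-type libraries. Among them Ccr2, a chemokine receptor of monocytes, fell by 4.18 on the log2 scale between wild-type and homozygous libraries (SE 0.36; edgeR adjusted p = 0.00216). It was also lower in homozygous than in heterozygous libraries (edgeR adjusted p = 0.0421). No other marker of that list passed, and 2 of the 6 tested were fitted above 0 for homozygous against wild type, beside 51.1% of all genes. Cd209a was at -0.01 (SE 0.41) and Zbtb46 at 0.62 (SE 0.51) on that scale. The 7 astrocyte markers summed to 43.9 to 84.4 CPM, 40.3 to 60.8 CPM and 12.02 to 93.6 CPM in the same order. Of these, Gja1, a gap junction protein, was at 3.78 to 13.5 CPM in homozygous and at 0 in all wild-type libraries (edgeR adjusted p = 0.0316). No other astrocyte marker passed, 4 of the 6 tested were fitted above 0, and Slc1a3 was at -2.06 (SE 2.07) on the log2 scale. The part of these transcripts in the values of the members was not tested.

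No difference passed the test for the remaining receptors. Msr1, the class A receptor SR-A, had 348, 350, 352 and 394.6 CPM in homozygous, 289, 365 and 197 CPM in heterozygous and 234, 268 and 337 CPM in wild-type libraries. All homozygous values were above the wild-type ones and overlapped the heterozygous ones, and the fold against wild type was 1.29 (95% interval 0.955 to 1.75; edgeR adjusted p = 0.726).

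Cd36, a fatty acid and oxidised lipoprotein receptor, ran from 329 to 612 CPM in homozygous, 218 to 587 CPM in heterozygous and 334 to 473 CPM in wild-type libraries. The genotypes overlapped, and the fold of homozygous to wild type had a 95% interval of 0.726 to 1.86. That interval gives the folds compatible with these values and is not a limit of detection. Scarb1, the high-density lipoprotein receptor, ran from 94.2 to 160 CPM in homozygous, 93.7 to 139 CPM in heterozygous and 120 to 153 CPM in wild-type libraries, with a fold of 0.977 (95% interval 0.706 to 1.35) for homozygous against wild type.

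Scarb2, whose product sits in the lysosomal membrane, varied little between mice. Its homozygous libraries held 201 to 243 CPM, the heterozygous ones 180 to 201 CPM and the wild-type ones 187 to 228 CPM. The fold of homozygous to wild type was 1.05 (95% interval 0.882 to 1.26). All homozygous values were above all heterozygous ones, with a fold of 1.18 (95% interval 0.989 to 1.42) that did not pass (edgeR adjusted p = 1). Lrp1 varied most among wild-type mice, with 162, 60.1 and 118 CPM, and had 97.3 to 135 CPM in homozygous and 106 to 148 CPM in heterozygous libraries. Its fold of homozygous to wild type was 0.950 (95% interval 0.608 to 1.48).

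**Figure D4:**
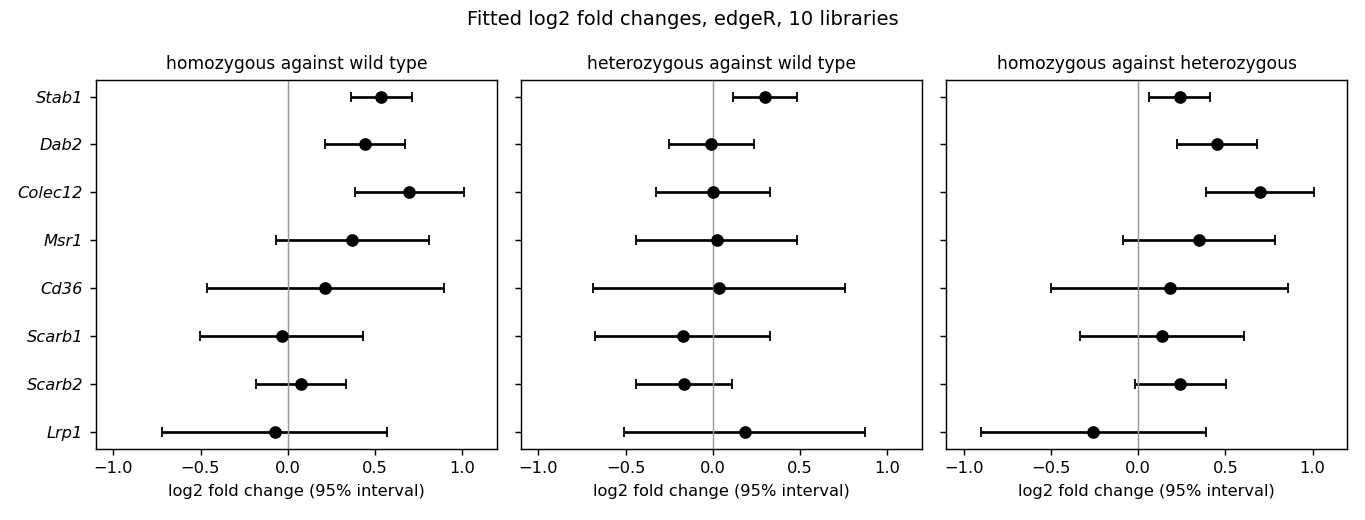
Fitted log2 fold changes with 95% intervals from edgeR for the 8 tested members in the 3 comparisons, with a line at 0. The intervals of Stab1, Dab2 and Colec12 lie above 0 for homozygous against wild type and against heterozygous, and only Stab1 does so for heterozygous against wild type; none of these passed after adjustment over all genes.

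For heterozygous against wild type, 0 of the 8 members and 0 of all genes passed (0%) by edgeR, with 1 of 8 and 5.82% of all genes (3.42% higher) at an unadjusted p under 0.05, and DESeq2 also called 0 members, beside 1.4% of all genes. Mrc1 itself, at 0.618-fold without overlap, did not pass by edgeR (adjusted p = 0.300), while DESeq2 called it (adjusted p = 2.12e-07). The lack of calls by edgeR therefore does not show that the members were unchanged. Stab1 was the 1 member whose libraries did not overlap, where 5.43% of all genes were higher and 4.16% lower in this way. Fitted values above 0 were found for 4 of 8 members and 50.7% of all genes. For homozygous against heterozygous, 0 of 8 passed by edgeR, beside 3 of all genes (0.0214%), with 3 of 8 and 4.86% of all genes (2.65% higher) at an unadjusted p under 0.05. Stab1, Colec12, Dab2 and Scarb2 were higher without overlap, where 3.75% of all genes were and 3.72% were lower. Fitted values above 0 were found for 7 of 8 members and 50.9% of all genes. DESeq2 called Dab2 and Colec12 there, beside 0.777% of all genes. The median log2 fold change of the members was 0.01 and 0.24 in these comparisons, against 0.01 and 0.01 over all genes. Both comparisons with wild type share the wild-type libraries, and both with heterozygous mice share those libraries, so they are not independent.

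Of 14 other scavenger receptors 8 were tested, and none passed in any of the 3 comparisons by edgeR (2 of 8 at an unadjusted p under 0.05 for homozygous against wild type, beside 7.52% of all genes). Their median log2 fold change for homozygous against wild type was -0.27, with 3 of 8 above 0, and it included Stab2, Scarf2 and Megf11, whose means over all libraries were 2.63, 2.84 and 1.95 CPM. The summed level went the other way, at 3378 to 3545 CPM in homozygous, 3163 to 3415 CPM in heterozygous and 2845 to 3093 CPM in wild-type libraries, with no overlap between homozygous and wild type. Most of that sum came from Cd68 and Cd163, and Cd163 is also among the macrophage markers above. From wild type to homozygous, the mean of Cd163 went from 1130 to 1591 CPM and that of Cd68 from 1514 to 1622 CPM. The mean of Cxcl16 went from 261 to 191 CPM. The most abundant were Cd68, a lysosomal glycoprotein (0.10, SE 0.08), Cd163, the haemoglobin-haptoglobin receptor (0.49, SE 0.13), Cxcl16, a membrane-bound chemokine that binds oxidised lipoprotein (-0.45, SE 0.11), and Scarf1 (0.22, SE 0.29). Cd163, with an edgeR adjusted p of 0.380, and Cxcl16, with 0.339, had opposite signs.

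Lrp1's relatives and their partners had 11 of 16 genes tested, with none passing by edgeR. For homozygous against wild type, 3 of 11 were at an unadjusted p under 0.05, beside 7.52% of all genes. Their median log2 fold change was 0.11, against 0.02 over all genes. Lrp6, a Wnt co-receptor, had 0.49 (SE 0.15), Lrp10 0.19 (SE 0.18) and Lrpap1, the chaperone of the family, 0.09 (SE 0.19). Lrp1 itself, at -0.07 (SE 0.29), was not among those higher.

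The clathrin machinery that Dab2 works with had 27 of 28 genes tested. None passed by edgeR in any comparison. For homozygous against wild type, 5 of 27 were at an unadjusted p under 0.05, beside 7.52% of all genes. In that comparison 17 of 27 (63.0%) were fitted above 0, beside 51.1% of all genes, with a median of 0.18 against 0.02. Cltc, the clathrin heavy chain, had a log2 fold change of 0.33 (SE 0.12), Ap2a2, a subunit of the AP-2 adaptor, 0.48 (SE 0.12), Clta, a clathrin light chain, 0.18 (SE 0.13) and Eps15, a coated-pit scaffold, 0.19 (SE 0.14). The summed level of the list was 5721 to 6190 CPM in homozygous, 4936 to 5444 CPM in heterozygous and 4464 to 5250 CPM in wild-type libraries, so all homozygous libraries were above the rest. Sorting partners of these receptors had 8 of 10 genes tested, with 0 passing and 0 at an unadjusted p under 0.05 for homozygous against wild type by edgeR, and a median of -0.09. Vps35, of the retromer, had -0.27 (SE 0.16), M6pr, a mannose 6-phosphate receptor, -0.16 (SE 0.19), Snx17, which recycles Lrp1, -0.17 (SE 0.17) and Vps26a, also of the retromer, -0.01 (SE 0.17).

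The genes whose pattern over the 10 libraries was most like each member were found among 6442 others with a mean of at least 20 CPM, by Pearson's r of log2 CPM, as a description. For Stab1 they were Ap1ar (r = 0.936), Hgsnat (r = 0.934) and Npl (r = 0.909). For Colec12 they were Fcgr2b (r = 0.958), Hgsnat (r = 0.937) and Bsdc1 (r = 0.918), and for Dab2 Sel1l (r = 0.918), Idh2 (r = 0.913) and Galc (r = 0.909). Hgsnat, a lysosomal enzyme of heparan sulfate breakdown, was thus near both Stab1 and Colec12. For Msr1 the 3 nearest were Urgcp (r = 0.970), Mtmr1 (r = 0.910) and Tomm20 (r = 0.908), for Cd36 Mrps24 (r = 0.897), Uqcrc2 (r = 0.884) and Smad4 (r = 0.878). For Scarb1 they were Ly6e (r = 0.884), Rab1b (r = 0.869) and Psmb8 (r = 0.858), for Scarb2 Nudt16 (r = 0.935), Ndst2 (r = 0.925) and Top3b (r = 0.899), and for Lrp1 Rpsa (r = 0.948), Clp1 (r = 0.934) and Hmgxb3 (r = 0.921). With 10 libraries and this many genes, high values of r arise for any gene.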

How the data were processed

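RNA of sorted CNS-associated macrophages from 10 mice was amplified (500 pg input; SMARTer Ultra Low Input, a chemistry without strand information) and tagged with Nextera XT in 1 batch, per the labels' protocols. For the sort gate, genome build, annotation and strand setting, nothing is stated in the sources used. The authors deposited raw counts per gene symbol, and the submitters' processing notes name bcl2fastq 2.20, STAR 2.7.8a and featureCounts 2.0.2. Groups were taken from the sample titles.

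Counts were filtered with filterByExpr by genotype. A gene needed the CPM equivalent of 10 counts in at least as many libraries as the smallest genotype group held, and 15 counts in all. The 14023 genes kept, with 99.9% of all counts, were scaled by trimmed mean of M values. edgeR 4.0.16 (R 4.3.3) fitted all 10 libraries with genotype as the only term and a robust quasi-likelihood test. P-values were adjusted by the Benjamini-Hochberg method over all genes, with a threshold of 0.05. Each SE was obtained from the fold and its F statistic. Alternatives used limma 3.58.1 and DESeq2 1.42.0. GENCODE vM21 gave lengths for 97.7% of tested genes by symbol.

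The members and lists were chosen with earlier results of these data known. Named besides the members were Mrc1, the 4 most abundant tested genes of each pathway list and the 3 nearest patterns; 1 gene under this rule is not reported here. Nt5dc2 and the markers given by level or fold were named after their values were seen.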

Additional observations from a re-analysis of the deposited data

Results flagged for a closer look

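In the homozygous group of 4, a single library stood apart from the others for 2 of the 8 tested members. Msr1 was at 394.6 CPM in homozygous replicate 4, where the other 3 libraries lay within 348 to 352 CPM. Lrp1 was at 135 CPM in the same library, where the others lay within 97.3 to 100.2 CPM. In both cases the gap exceeded the critical share of the group's range in Dixon's test at the 95% level. Chance flags about 1 in 20 such groups.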

How the results depend on the processing

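The folds of Stab1, Colec12 and Dab2 for homozygous against wild type kept their sign under every alternative run, with log2 ranges of 0.50 to 0.57, 0.63 to 0.78 and 0.38 to 0.56 when each library was left out in turn. No member was called in any of those 10 fits, in any comparison (0 to 0). For homozygous against wild type the members called were 1 with the stricter count filter, 1 with limma-voom and 3 with DESeq2, and for homozygous against heterozygous 2 with DESeq2; the cause was not tested. Over all genes, DESeq2 called 272, 197 and 109 genes for homozygous against wild type, heterozygous against wild type and homozygous against heterozygous. The first count was 17 when the title letter was a term and 2 with only the 2 genotypes compared. It was 2 to 5 without any library other than wild-type replicate 3, and 12 without that one. The last was 1 without robust estimation, with the title letter or with only the 2 genotypes compared, 1 without any library other than wild-type replicate 1, and 2 without that one. With the replicate block the counts of called genes were 1, 0 and 1, and Stab1 for homozygous against wild type had an adjusted p of 0.343. The titles' replicate numbers were not taken as pairs, since same-numbered libraries correlated at 0.044 to 0.162 for homozygous with wild type, -0.043 to 0.0054 for heterozygous with wild type and 0.098 to 0.214 for homozygous with heterozygous. A sample correlated best with its own number in 5 of 6 cases for homozygous with wild type and 6 of 6 for homozygous with heterozygous. For heterozygous with wild type it was 0 of 4. Any pairing is thus a hint from part of the data and not from the design. In every genotype, replicates 1 and 2 carried the title letter m and any replicate 3 or 4 the letter f. Number and letter were thus partly confounded.

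Values near 0 changed sign. Msr1 for heterozygous against wild type had -0.0012 with DESeq2's size factors and -0.0011 with DESeq2. With limma-voom, Lrp1 for homozygous against wild type had 0.045 and Cd36 for heterozygous against wild type -0.0099. With each library left out, the ranges crossing 0 were -0.15 to 0.092 for Scarb1 and -0.38 to 0.28 for Lrp1 (homozygous against wild type), -0.20 to 0.22 for Msr1, -0.16 to 0.11 for Colec12, -0.31 to 0.33 for Cd36, -0.13 to 0.52 for Lrp1 and -0.083 to 0.098 for Dab2 (heterozygous against wild type), and -0.12 to 0.52 for Cd36 and -0.0045 to 0.28 for Scarb1 (homozygous against heterozygous). With 3 or 4 mice a group, the median SE was 0.18 for genes at 100 CPM or more and 0.61 over all genes. The fit on the number of alleles called 2 to 6 genes with each library left out, with 2 or 3 without homozygous replicates 1, 2 or 4, heterozygous replicate 2 or wild-type replicate 1.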

Other observations

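The titles carry a letter, m in 6 libraries and f in 4. With genotype in the fit, a comparison also added after the data had been seen, no member differed by letter over all genes, of which 3 did (0.0214%). Scarb1 came closest, at 146 CPM on average in the libraries with f and 115 CPM in those with m, a log2 fold change of 0.35 (SE 0.15; edgeR adjusted p = 0.799).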
